A study of Mus musculus with 6 samples.

Results

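Transcripts of the tissue inhibitors of metalloproteinases and of the plasminogen activator system were measured in cultured mouse lung fibroblasts after knockdown of the transcription factor Wt1. The members were given by name and matched to the rows of a gene count table by gene symbol: the inhibitors Timp1, Timp2, Timp3 and Timp4, the plasminogen activators Plat and Plau, the urokinase receptor Plaur, and the serpins Serpine2 and Serpinf1. All 9 were found among the 24061 genes of the table, and 8 of them had enough reads to be tested. The 6 RNA sequencing libraries came from fibroblasts, titled resident fibroblasts, of fibrotic lungs of mice with a TGF-alpha transgene, which every group carries. Libraries 1 to 3 are from cells given a control siRNA, and libraries 4 to 6 from cells given an siRNA against Wt1, 3 of each. The sources used here do not give the promoter of the transgene, the age of the mice or the time from transfection to harvest. They also do not say whether the libraries of 1 group are from different cultures, and the p-values therefore cover only the spread between these libraries, which may be technical.

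The TIMPs are small secreted proteins that block the active site of matrix metalloproteinases and of some ADAM proteases, and Timp3 stays bound to the matrix. Plasminogen is cut to plasmin, a broad protease that dissolves fibrin and activates pro-metalloproteinases, by tissue-type activator (Plat) and by urokinase (Plau), the latter concentrated at the cell surface by its receptor Plaur. Serpins such as protease nexin-1 stop these proteases, and the balance is studied in lung fibrosis because it sets how much matrix and fibrin are removed.

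Library totals ranged from 26.1 to 32.1 (in units of 1e6 counts). Wt1 stood at 48.8, 55.7 and 51.5 CPM (counts per 1e6 counts of the library, scaled by TMM) in the controls and at 11.4, 8.63 and 7.92 CPM in libraries 4 to 6, 5.59-fold lower (edgeR adjusted p = 5.98e-06). At an adjusted p below 0.05, edgeR called 19.3% of the 14190 genes tested, 1284 of them higher (9.05%) and 1459 lower (10.3%). Higher genes made up 46.8% of the calls, and 31.9% with scaling by library size alone; leaving out Wt1 siRNA library 4 gave 578 higher and 785 lower genes. The fibroblast markers were present throughout, with a summed level of 21268 to 30497 CPM in controls and 33024 to 40223 CPM after Wt1 siRNA (5 of 10 higher, 2 lower). Collagens weigh heavily in this sum: mean Col1a1 rose from 7982 to 17421 CPM and Col1a2 from 5793 to 9655 CPM. The 2 lower markers were Col3a1, from 7430 to 5391 CPM, and Pdgfra, from 1181 to 523 CPM. Markers of other cells were also detected, at lower sums than the fibroblast markers. The 10 macrophage markers summed to 41.3 to 51.1 CPM in controls and 34.2 to 38.6 CPM after Wt1 siRNA (1 lower, C1qa at 0 in every library), and the 10 epithelial markers to 49.6 to 66.4 and 43.7 to 48.9 CPM (1 lower, Scgb1a1 at 0). The 10 endothelial markers summed to 118 to 143 and 101 to 121 CPM (1 lower), and the 6 mesothelial markers other than Wt1 to 198 to 244 and 147 to 188 CPM (2 higher, 3 lower). Markers of 1 type did not all move alike. Mean Cd14, the lower macrophage marker, went from 18.7 to 8.41 CPM, and Lyz2 stood at 19.7 and 21.7 CPM. Of the mesothelial markers, Lrrn4 fell from 70.9 to 16.5 CPM, Upk3b from 23.8 to 5.36 and Bnc1 from 22.9 to 10.4. Msln rose from 21.3 to 38.8 CPM and Krt19 from 17.9 to 39.0. The part of these cells in the results on the inhibitors and activators was not tested. In such bulk samples fewer cells of a type, less RNA per cell and changes of single markers cannot be told apart from a sum.

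Since Wt1 binds GC-rich DNA, the bases before the start site of the members were searched for its letters. RefSeq windows (GRCm38.p6) were at hand for 7 members, all but Plat and Plau, and the 250 bases before each start were searched on both strands. Shares are over the 32851 such windows of all genes, and in second place over the 14082 windows of genes tested here. Of the WT1/EGR type, GCGGGGGCG was in 2.57% and 4.64% of them and GCGTGGGNG in 1.65% and 2.71%. The AP-1 motif, spelled TGANTCA, was in 6.75% and 4.89% of windows. The GC box was searched as GGGCGG, which the first WT1/EGR motif overlaps, and was found in 32.7% and 56.1%. A TATA box, spelled TATAAA, was in 12.4% and 6.9%. The windows shown are that of Timp1, whose transcript was lower, that of Serpine2, whose transcript was higher, and that of Plaur, which holds a WT1/EGR and an AP-1 match. Capitals mark matches of any of the 5 motifs, letters run 5′ to 3′ along the gene's strand, and a window stops before the first base of any annotated exon of the gene.
Timp1, chrX:20869916-20870165, plus strand: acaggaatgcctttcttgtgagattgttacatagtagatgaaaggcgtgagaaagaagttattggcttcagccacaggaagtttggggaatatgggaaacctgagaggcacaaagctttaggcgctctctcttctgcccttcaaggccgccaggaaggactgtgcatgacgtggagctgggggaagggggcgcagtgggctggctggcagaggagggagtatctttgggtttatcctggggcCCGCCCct
Serpine2, chr1:79858697-79858915, minus strand: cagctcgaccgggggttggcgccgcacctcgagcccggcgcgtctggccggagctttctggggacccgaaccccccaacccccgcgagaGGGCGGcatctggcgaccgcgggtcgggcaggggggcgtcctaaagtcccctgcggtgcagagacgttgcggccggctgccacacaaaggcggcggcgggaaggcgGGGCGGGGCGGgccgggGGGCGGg
Plaur, chr7:24462233-24462482, plus strand: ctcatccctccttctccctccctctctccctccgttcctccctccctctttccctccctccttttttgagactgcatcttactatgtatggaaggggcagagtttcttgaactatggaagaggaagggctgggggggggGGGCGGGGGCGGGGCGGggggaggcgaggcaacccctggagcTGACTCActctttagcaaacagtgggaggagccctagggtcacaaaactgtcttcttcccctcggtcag

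The Plaur window had the WT1/EGR letters at -109 to -101 from the start and the AP-1 letters at -69 to -63. Serpine2 had 6 GC boxes in the whole 250 bases and the WT1/EGR letters at -17 to -9, in the stretch that is annotated as exon and left out of the print; its window lies inside the annotated span of the gene, since a longer transcript begins further upstream. The windows of Timp1, Timp2 and Timp3 had 1 GC box each and no match of the other motifs. Those of Timp4 and Serpinf1 had no match of any. The Timp2 window begins in an annotated exon of the gene. In the Timp3 window annotated exon begins after 210 bases, and its GC box at -15 to -10 lies past that point. A match is a description of letters and says nothing about binding.

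Among the TIMPs, Timp1 and Timp3 fell after Wt1 siRNA, Timp2 rose, and Timp4 had no reads. Timp1 (gene ID 21857, GRCm38 chromosome X, 20870166 to 20874735), a secreted inhibitor that is inducible by cytokines and growth factors, was at 1254, 1148 and 1447 CPM in control libraries 1 to 3 and at 481, 439 and 693 CPM in Wt1 siRNA libraries 4 to 6. Every library with Wt1 siRNA was below every control, with library 6 the highest of the treated and library 3 the highest of the controls. From 1283 ± 151 to 538 ± 136 CPM (SD, n = 3), Timp1 was 2.38-fold lower (log2 fold change -1.25 ± 0.16, SE, edgeR adjusted p = 3.31e-04).

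Timp3 (gene ID 21859, chromosome 10, 86300372 to 86349506), the matrix-bound inhibitor that also acts on ADAM17, had 2309, 2469 and 2166 CPM in the controls and 1276, 1327 and 1139 CPM after Wt1 siRNA. The groups were far apart and the libraries within each were close. Means of 2314 ± 152 and 1247 ± 96.8 CPM (SD, n = 3) gave a log2 fold change of -0.89 ± 0.10 (1.86-fold lower, edgeR adjusted p = 1.75e-04).

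Timp2 (gene ID 21858, chromosome 11, 118301069 to 118355740), which inhibits metalloproteinases and also takes part in the activation of pro-MMP2 by MMP14 at the cell surface, went the other way. It was at 862, 787 and 732 CPM in the controls and at 1086, 1080 and 1066 CPM after Wt1 siRNA, again without overlap. The rise was the smallest of the 5 called members, 0.44 ± 0.10 on the log2 scale (794 ± 65.6 to 1077 ± 10.3 CPM, SD, n = 3, edgeR adjusted p = 0.00862). Without Wt1 siRNA library 4 the log2 fold change was still 0.44, but the adjusted p was 0.0585.

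Timp4 (gene ID 110595, chromosome 6, 115241892 to 115252205), a TIMP known from heart and brain, had 0 reads in each of the 6 libraries, which allows a level of up to 0.0926 to 0.113 CPM per library (3 reads, counting error only). It was not tested.

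**Figure D1:**
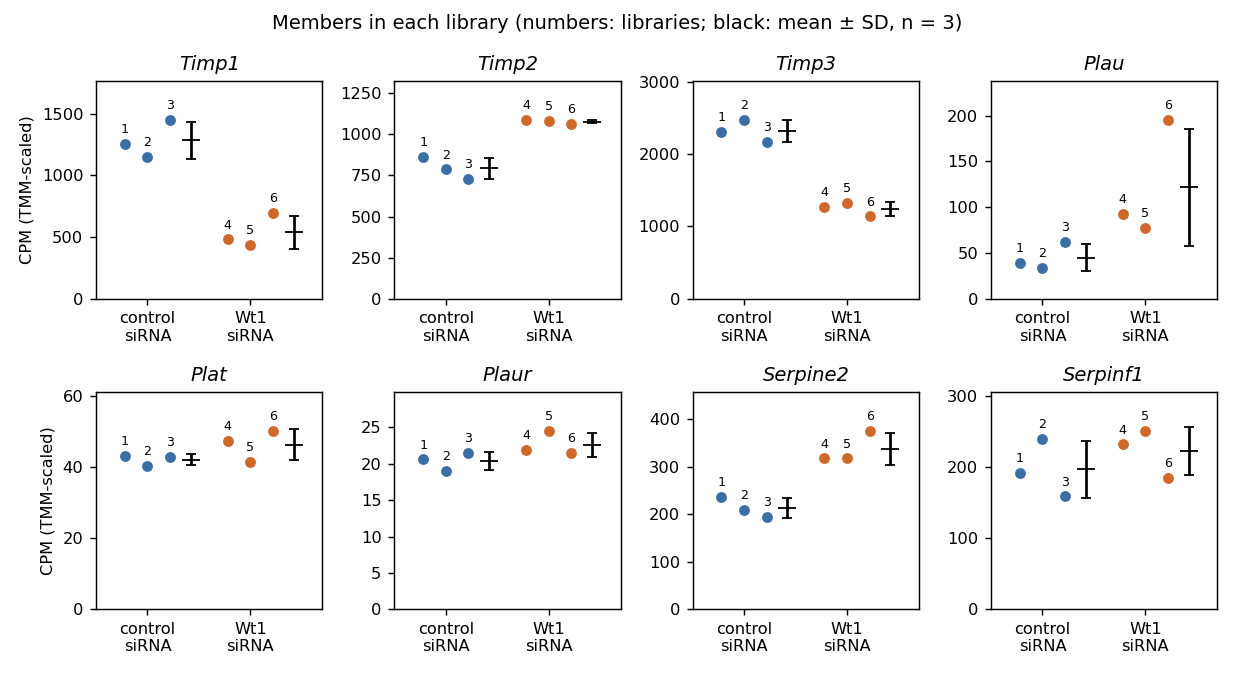
Level of the 8 members with reads in each library (vertical axes: TMM-scaled CPM from 0; points: libraries 1 to 3 with control siRNA and 4 to 6 with Wt1 siRNA; black: mean ± SD, n = 3). Timp1 and Timp3 are lower in all libraries with Wt1 siRNA, Timp2, Plau and Serpine2 are higher in all of them, and the groups of Plat, Plaur and Serpinf1 overlap.

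Levels of different genes were set side by side only per length, as CPM per kilobase of annotated exon. On this scale Timp1 was the most abundant TIMP transcript in every library, at 1412, 1293 and 1629 CPM per kb in the controls and 542, 494 and 781 CPM per kb after Wt1 siRNA. Timp3 came next in the controls (284 ± 18.6, SD, n = 3) and Timp2 after it (204 ± 16.8), with no overlap between their libraries. After Wt1 siRNA this order was turned, with Timp2 at 276 ± 2.65 and Timp3 at 153 ± 11.9 CPM per kb, also without overlap.

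The summed TIMP level per length was 1917, 1798 and 2083 CPM per kb in the controls and 977, 935 and 1194 CPM per kb after Wt1 siRNA. All treated libraries lay below all controls. Within that sum Timp1 made up 73.7%, 71.9% and 78.2% in the controls against 55.5%, 52.9% and 65.4%, and Timp2 made up 11.5%, 11.2% and 9.02% against 28.5%, 29.7% and 22.9%. The share of Timp3 overlapped between groups (14.8% ± 2.04 and 15.1% ± 2.98, SD, n = 3). With the longest transcript in place of all annotated exon bases, Timp3 counted for more (22.8% and 23.0%) and Timp1 for less (67.2% and 51.8%), and the order of the 3 genes in each group was as before. These shares were not tested.

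**Figure D2:**
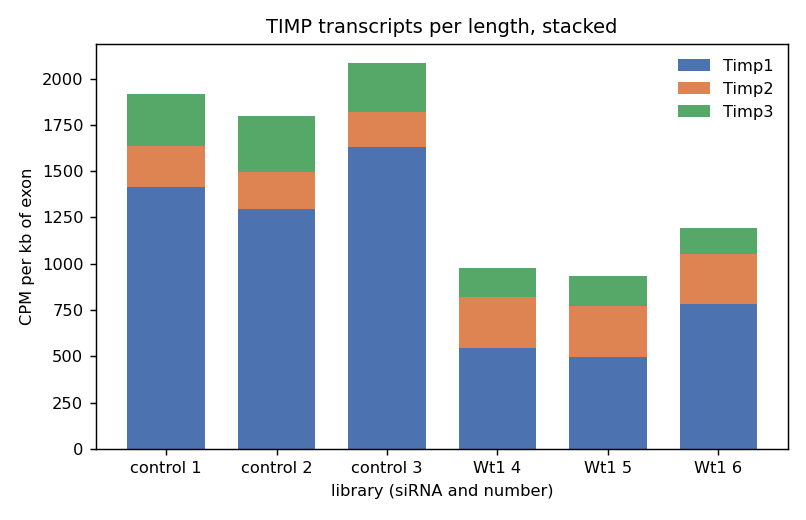
TIMP transcripts per length in each library (vertical axis: CPM per kb of annotated exon, stacked from 0; horizontal axis: library). The stacks of libraries 1 to 3 (control siRNA) reach 1798 to 2083 and those of libraries 4 to 6 (Wt1 siRNA) 935 to 1194, with a wider Timp2 segment in the latter.

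Of the TIMP genes, 3 lie inside synapsin genes on the opposite strand, namely Timp1 in Syn1, Timp3 in Syn3 and Timp4 in Syn2. The sources used here do not give the strand setting of the counting. Syn1, a synaptic vesicle protein gene, shares 0 exon bases with Timp1; it had 4.38, 3.34 and 6.01 CPM in the controls and 12.9, 12.5 and 15.5 CPM after Wt1 siRNA. It thus rose (log2 fold change 1.58 ± 0.24, edgeR adjusted p = 8.94e-04) where Timp1 fell. Syn3 shares 1733 of the 8144 exon bases of Timp3, and reads in them cannot be told apart without strand; Syn3 was counted at 0.607 ± 0.397 and 1.27 ± 0.73 CPM (SD, n = 3, edgeR adjusted p = 0.361). Syn2, which shares 90 of the 5894 exon bases of Timp4, was at 4.95 ± 1.13 and 5.12 ± 0.97 CPM (adjusted p = 0.936). Cep295nl, which lies in Timp2 on the same strand and shares 0 exon bases with it, was at 1.12 ± 0.60 and 1.47 ± 0.13 CPM (adjusted p = 0.686).

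Of the plasminogen activators, urokinase rose and tissue-type activator did not pass. Plau (gene ID 18792, chromosome 14, 20836660 to 20843385) was at 38.8, 34.1 and 61.9 CPM in the controls and at 92.4, 77.6 and 195 CPM in libraries 4 to 6. The groups did not overlap, and library 3 was the highest control and library 6 the highest treated library. Means of 44.9 ± 14.9 and 122 ± 63.9 CPM (SD, n = 3) gave a log2 fold change of 1.44 ± 0.31, or 2.71-fold higher (edgeR adjusted p = 0.00706). Without Wt1 siRNA library 6 the log2 fold change was 0.92 (adjusted p = 0.0124), and with robust shrinkage the adjusted p was 0.0482.

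Plat (gene ID 18791, chromosome 8, 22757727 to 22782844), also a product of endothelium, had 43.2, 40.3 and 43.0 CPM in the controls and 47.3, 41.5 and 50.2 CPM after Wt1 siRNA. These ranges overlap, and the log2 fold change was 0.14 ± 0.12 (edgeR adjusted p = 0.472). Per length, Plau was 2.37, 2.23 and 3.79 times Plat in the controls and 5.15, 4.93 and 10.2 times Plat after Wt1 siRNA, with no overlap between the groups. With the longest transcript as length these ratios were 1.55, 1.46 and 2.48 against 3.37, 3.22 and 6.70.

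Plaur (gene ID 18793, chromosome 7, 24462484 to 24475968), the lipid-anchored receptor that holds urokinase at the cell surface and is abundant on myeloid cells, was at 20.6, 19.1 and 21.5 CPM in the controls and 21.9, 24.5 and 21.4 CPM after Wt1 siRNA. The lowest treated library lay just under the highest control. Its log2 fold change of 0.15 ± 0.14 did not pass (edgeR adjusted p = 0.494).

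Among the serpins, Serpine2 (gene ID 20720, chromosome 1, 79794197 to 79861180), protease nexin-1, a cell-surface inhibitor of thrombin, urokinase and plasmin, was higher. It had 236, 209 and 194 CPM in the controls and 317, 317 and 375 CPM after Wt1 siRNA. All treated libraries lay above all controls. Means were 213 ± 21.3 and 337 ± 33.3 CPM (SD, n = 3), 1.58-fold apart (log2 fold change 0.66 ± 0.12, edgeR adjusted p = 0.00207).

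Serpinf1 (gene ID 20317, chromosome 11, 75409769 to 75422701), pigment epithelium-derived factor, is a serpin that does not inhibit proteases and is known as an inhibitor of angiogenesis. It stood at 193, 240 and 159 CPM in the controls and at 232, 251 and 185 CPM after Wt1 siRNA, so that the groups overlapped over most of their range. The log2 fold change was 0.18 ± 0.16 (edgeR adjusted p = 0.485), and 0.04 to 0.34 with 1 library left out.

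In all, 3 of the 8 tested members were higher and 2 lower, against 9.05% and 10.3% of all genes tested. These 5 members had groups without overlap, as had 36.4% of all genes tested. The median log2 fold change of the 8 was 0.16, beside 0.0035 over all genes tested, and the called members moved in opposite directions within the TIMPs. The members were chosen with earlier results of these data known, so their counts are no test against the shares over all genes.

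**Figure D3:**
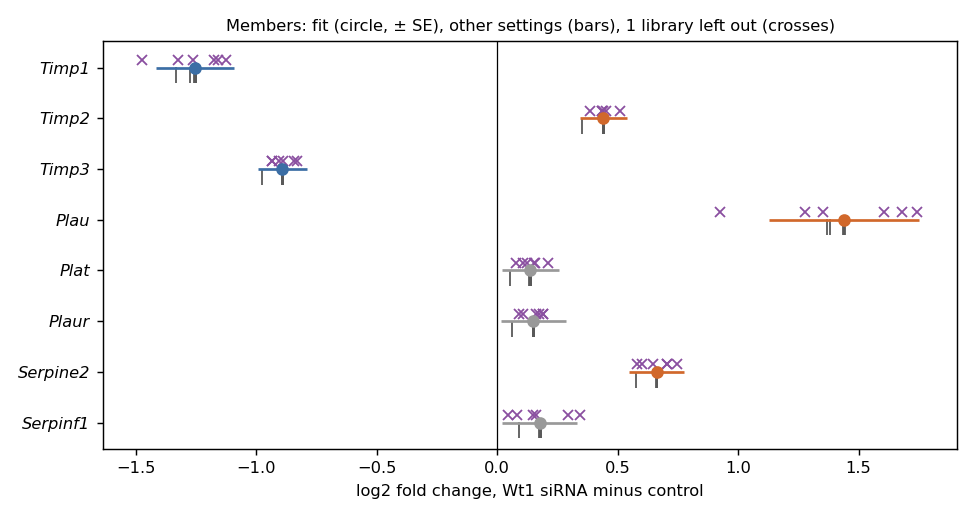
Log2 fold change of the 8 tested members (horizontal axis, Wt1 siRNA minus control; circle with line: reported fit ± SE; bars: other normalization, filter or test; crosses: 1 library left out). All settings of a member lie on 1 side of 0, and the widest spread is that of Plau, from 0.92 to 1.74.

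By level per length in the controls, Timp1, Timp3 and Timp2 were followed by Serpinf1 (83.5 ± 17.2 CPM per kb), Serpine2 (25.7 ± 2.57), Plau (19.0 ± 6.28), Plaur (7.79 ± 0.47) and Plat (6.76 ± 0.26; SD, n = 3). Serpine2 and Plau overlapped. After Wt1 siRNA Plau (51.4 ± 27.0) had a higher mean than Serpine2 (40.6 ± 4.01) and in library 6, at 82.4 CPM per kb, exceeded Serpinf1 at 78.4 CPM per kb; the libraries of Plau overlapped with those of both. Plaur (8.65 ± 0.63) and Plat (7.43 ± 0.71) remained the lowest with reads and did not overlap. With the longest transcript Plat stood above Plaur in the means of both groups (10.4 and 10.1 CPM per kb in controls), and Serpine2 above Plau after Wt1 siRNA (99.2 and 52.0 CPM per kb).

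The other genes of the plasminogen system, a list of 38 of which 37 were in the table, also went both ways, with 9 of 28 tested genes higher, 6 lower and 13 that did not pass, beside 9.05% higher and 10.3% lower among all genes tested. The median log2 fold change was 0.25. Since the list was chosen with earlier results of these data known, its counts are no test against the shares over all genes. Serpini1, neuroserpin, an inhibitor of tissue-type activator, rose from 9.43 ± 1.72 to 19.2 ± 2.28 CPM (SD, n = 3; log2 fold change 1.02 ± 0.19, edgeR adjusted p = 0.00268).

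Substrates of the activators besides plasminogen were among the genes that rose. Pdgfc, whose product is activated by tissue-type activator, had 13.3, 10.1 and 13.9 CPM in the controls and 31.9, 29.9 and 28.3 CPM after Wt1 siRNA (log2 fold change 1.27 ± 0.16, edgeR adjusted p = 2.73e-04). Pdgfd, whose product is activated by urokinase, went from 13.9 ± 2.81 to 33.4 ± 5.06 CPM (1.27 ± 0.18, adjusted p = 5.63e-04). Hgf, the hepatocyte growth factor, had 31.1 ± 4.82 and 17.0 ± 8.35 CPM, a fall of 0.87 ± 0.28 (adjusted p = 0.0480) that did not pass with robust shrinkage (0.0728) or when library 1, 3, 4 or 5 was left out (0.106 to 0.166).

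Plasminogen itself (Plg), a liver product, had 0 reads in every library, and Serpinf2, the plasmin inhibitor of blood that neighbours Serpinf1, had 4 to 13 reads and was not tested. Of the surface proteins that hold plasminogen, Anxa2 and S100a10, which form a complex, went in opposite directions: Anxa2 rose by 0.38 ± 0.11 (edgeR adjusted p = 0.0251, and 0.0563 to 0.0935 when library 1, 3, 4 or 5 was left out) and S100a10 fell by 0.73 ± 0.16 (87.3 ± 13.2 to 52.7 ± 11.3 CPM, adjusted p = 0.00896). Eno1, a glycolytic enzyme that also binds plasminogen, fell by 0.32 ± 0.09 (adjusted p = 0.0295), a call lost when any 1 library except control library 1 was left out (adjusted p = 0.0505 to 0.140), and it has near-identical copies whose reads could be shared. The plasminogen receptor Plgrkt was at 10.6 ± 3.0 and 11.6 ± 0.98 CPM (adjusted p = 0.752).

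Lrp1, the endocytic receptor that clears activator-inhibitor complexes, had 2050, 2338 and 2010 CPM in the controls and 2557, 2584 and 2417 CPM after Wt1 siRNA. The groups did not overlap, and the log2 fold change of 0.24 ± 0.10 did not pass (edgeR adjusted p = 0.109; 0.0316 without control library 2). Itgb1, the integrin beta chain that pairs with many alpha chains, rose by 0.50 ± 0.10 (adjusted p = 0.00386), and Itgav, the alpha chain of vitronectin-binding integrins, by 0.63 ± 0.12 (adjusted p = 0.00388). F2r, the thrombin receptor, fell from 1201 ± 102 to 839 ± 33.8 CPM (-0.52 ± 0.10, adjusted p = 0.00386), and A2m, a broad protease trap, from 14.99 ± 5.32 to 4.86 ± 1.8 CPM (-1.62 ± 0.31, adjusted p = 0.00378). Without Wt1 siRNA library 4 the list held 5 higher and 3 lower genes, and without control library 3 it held 3 lower.

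Of 38 metalloproteinases and TIMP partners, all tested, 5 were higher, 10 lower and 23 did not pass (median log2 fold change -0.10), beside 9.05% higher and 10.3% lower among all genes tested. This list was also chosen with earlier results known, so its counts are no test against these shares. The stromelysin Mmp3 was at 191, 162 and 209 CPM in the controls and 40.1, 27.4 and 55.9 CPM after Wt1 siRNA, with no overlap. This was a 4.55-fold lower level (log2 fold change -2.19 ± 0.21, edgeR adjusted p = 6.77e-05). The collagenase Mmp8 fell by 2.15 ± 0.14 and Mmp24, a membrane-type metalloproteinase, by 0.93 ± 0.22 (adjusted p = 5.98e-06 and 0.0126, the latter 0.0673 without Wt1 siRNA library 4).

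Mmp2, the gelatinase whose pro-form Timp2 tethers to Mmp14, fell from 271 ± 32.3 to 189 ± 10.9 CPM (-0.52 ± 0.11, edgeR adjusted p = 0.00765). Mmp14 had 826, 780 and 690 CPM in the controls and 599, 547 and 607 CPM after Wt1 siRNA, a fall of 0.39 ± 0.10 (adjusted p = 0.0221) that did not pass when library 1 (0.0864), 4 (0.0927) or 5 (0.0886) was left out. Timp2, the third gene of that trio, rose, as given above. Adam10, a sheddase, fell by 0.69 ± 0.11 (adjusted p = 0.00145).

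The genes that rose were led by Mmp11, stromelysin-3, which went from 77.6 ± 17.9 to 189 ± 30.6 CPM (1.28 ± 0.17, edgeR adjusted p = 3.91e-04). Reck, a membrane-anchored inhibitor of metalloproteinases outside the TIMP family, had 33.2, 31.4 and 23.2 CPM in the controls and 53.4, 52.7 and 47.3 CPM after Wt1 siRNA, without overlap (0.80 ± 0.15, adjusted p = 0.00271). Adam19 rose by 0.48 ± 0.09 and Adamts4, an aggrecanase, by 0.54 ± 0.13 (adjusted p = 0.00378 and 0.0112). Cd63, a tetraspanin that binds Timp1 at the cell surface, was at 323 ± 32.6 and 294 ± 37.0 CPM (adjusted p = 0.487). With library 1 left out 5 genes of the list were lower, and 6 with library 4 or 5 left out. Itgb1, Itga3 and Lrp1 stand in both lists.

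**Figure D4:**
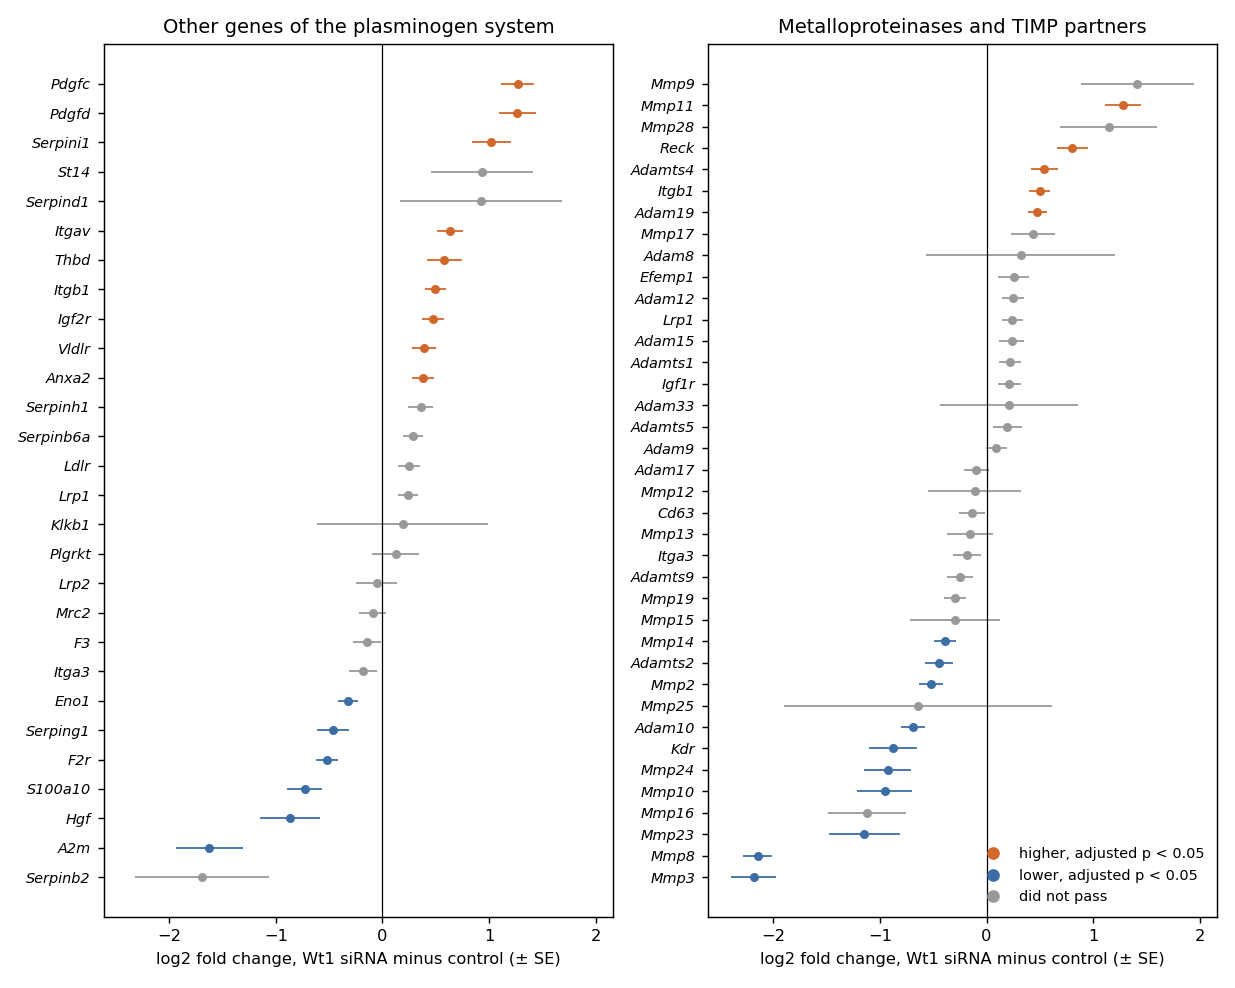
Log2 fold changes (horizontal axis, Wt1 siRNA minus control, ± SE) of the tested genes of the plasminogen system (left, 28 genes) and of metalloproteinases and TIMP partners (right, 38 genes), ordered by size. Pdgfc and Pdgfd lead the called rises on the left and Mmp11 on the right, and Mmp3 and Mmp8 are the largest falls on the right.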

How the data were processed

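The table holds raw whole-number counts per Entrez gene ID, as deposited by the authors, for 6 libraries of total RNA. Per the submitters' processing notes, bcl2fastq, CASAVA 1.8, TopHat, DESeq and the build mm10 (GRCm38) were used, with no role or order stated; counting tool, annotation, strand setting and filters: not given in the sources used here. RefSeq of GRCm38.p6 named 23976 of 24061 gene IDs and GENCODE named 7 more and gave exon lengths.

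The main test was the quasi-likelihood test of edgeR 4.0.16 (R 4.3.3) with TMM, filterByExpr (14190 genes kept), the siRNA group as the only term and Benjamini-Hochberg adjustment over all genes at 0.05. Standard errors (SE) were taken as |log2 fold change| over the root of the F statistic. DESeq2 1.42.0, limma 3.58.1 (voom), other scalings and filters, and leaving out each library were alternatives. Counts of the 14190 genes were also simulated, each time with only 200 genes changed. There, 23.4% of genes changed 1.5-fold, 67.2% changed 2-fold and 88.4% changed 4-fold were recovered, with 7.27% false calls. In the data edgeR called 19.3% of the genes tested, so these shares do not give the recovery of the reported fit.

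The members, gene lists and motifs were chosen with earlier results of these data known. Named genes are the 9 members, Wt1 and genes fixed for their role (Plg, Lrp1, Reck, Mmp2, Mmp14, Cd63, the synapsins, Cep295nl, Serpinf2). Per list and direction, up to 5 called genes with the smallest p are named as well. Anxa2, Plgrkt and single cell markers were named after their values were seen. The same holds in the closing observations for Serpinb2, Mmp10, Mmp13 and Igf2r. One gene of the plasminogen list is not reported here and is left out of the list's counts. Protein sequences were not used here.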

Additional observations from a re-analysis of the deposited data

How the results depend on the processing

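No paired analysis was possible because control libraries are numbered 1 to 3 and Wt1 siRNA libraries 4 to 6, with no shared number, and the labels give no other link between libraries. Over 13 alternatives per member, 103 of the log2 fold changes kept their direction and side of the threshold; the 1 exception was Timp2 without Wt1 siRNA library 4 (0.44, adjusted p = 0.0585). With 1 library left out, 2 to 3 members were higher and 2 lower, the plasminogen list had 5 to 10 higher and 3 to 5 lower, and the metalloproteinase list had 5 to 9 lower. Over all genes these fits gave 578 to 1253 higher and 785 to 1406 lower, and library size scaling gave 855 higher and 1829 lower. With the longest transcript as length, 2 members changed rank by level in controls and 4 after Wt1 siRNA. Syn2, which did not pass, turned to -0.038 with library size scaling, and ranged from -0.13 to 0.18 with 1 library left out, below 0 without library 3 or 4. With 1 library left out, Plgrkt ranged from -0.077 to 0.33 (below 0 without library 2) and Mmp13 from -0.37 to 0.044 (above 0 without library 3); neither passed. For the tested genes named besides the members, the cell markers and Igf2r, 385 values kept their side, 22 lost and 4 gained a call. The cause was not tested. Timp4 and Plg, with 0 reads, and Serpinf2, with 4 to 13 reads, were left out by the filter, so no change is given for them. Whether depth or a lack of these transcripts in the cells lies behind this was not tested.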

Other observations

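Within each group, several members and genes of the 2 lists were highest in control library 3 and in Wt1 siRNA library 6 and lowest in libraries 2 and 5. Besides Timp1 and Plau these were Serpinb2, a urokinase inhibitor, at 12.3, 6.65 and 27.2 CPM in controls 1 to 3 and 2.23, 1.49 and 10.4 CPM in libraries 4 to 6, and Mmp10, at 66.0, 41.2 and 76.3 CPM against 29.3, 21.3 and 43.7 CPM. Mmp10 passed (log2 fold change -0.96 ± 0.26, edgeR adjusted p = 0.0213), though its groups overlap. Its call was lost when library 1, 3, 4 or 5 was left out (adjusted p = 0.0652 to 0.104). Mmp13 had 56.9, 34.8 and 65.8 CPM against 44.9, 38.0 and 58.7 CPM. Mmp3, Hgf, Igf2r and Itgav had the same order. Serpinf1 and Timp3 were instead highest in libraries 2 and 5 and lowest in libraries 3 and 6. Of the 71 tested members and genes of both lists, 9 had the first order and 6 the second. The share of all genes with either full order was not computed. The shares that follow count the highest libraries alone and are no background for these counts. Over all 14190 genes tested, the 9 combinations of a highest control and a highest treated library held 7.77% to 18.3% of the genes: 18.3% for 2 with 5, 15% for 1 with 6, 13.7% for 3 with 6 and 9.29% for 1 with 4. Whether libraries of the 2 groups share a culture or day was not tested, since the labels give no link between them.

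Serpinb2 did not pass (log2 fold change -1.70 ± 0.63, edgeR adjusted p = 0.0796). With 1 library left out its log2 fold change ranged from -3.04 to -1.01. The former was without Wt1 siRNA library 6 (adjusted p = 0.00245) and the latter without control library 3 (adjusted p = 0.364). Serpinb2 also passed without control library 2 (adjusted p = 0.0392) and with no low-count filter (0.0130). The adjusted p was 0.212 with robust shrinkage and 0.214 with DESeq2.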
